A study of Mus musculus with 47 samples.

Results

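Cyp4a10, Cyp4a12a, Cyp4a12b, Cyp4a14, Cyp4a31 and Cyp4a32 encode 6 fatty acid hydroxylases of the mouse cytochrome P450 4a subfamily. They were taken by gene symbol and make up 6 of the 22474 genes in a kidney expression table. All 6 were also among the 18786 genes that passed the filter on low counts. Polyadenylated RNA was sequenced in 47 libraries from wild-type mice with no treatment beyond the diet; the tissue is labelled metanephros, and the title of the series speaks of kidney. The mice were NZO/HlLtJ, a polygenic obese strain that develops diabetes, CAST/EiJ, a wild-derived strain, and C57BL/6J, the standard laboratory strain, and each strain was represented by females and males. From 6 weeks of age they received a diet with 44% fat and fiber, called high fat and high sugar in the series description, or a control diet with 10% fat and fiber, and tissue was taken at 15 weeks. Each of the 12 groups had 4 libraries, except that CAST/EiJ males on 10% fat had 3. Nothing in the labels says that libraries are from separate animals, so p-values measure the spread between these libraries. The study asked how genotype and diet interact in these strains.

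The Cyp4a enzymes hydroxylate fatty acids at the terminal (omega) carbon or next to it. In the kidney they sit mainly in the proximal tubule and turn arachidonic acid into hydroxylated eicosanoids that act on renal vessels and on salt transport. In mouse kidney, Cyp4a12a is known as the main arachidonic acid omega-hydroxylase and as an androgen-induced gene of males, while Cyp4a10 and Cyp4a14 are classic targets of PPARα, the nuclear receptor that fatty acids and fibrates activate. Cyp4a10 hydroxylates lauric acid, Cyp4a14 is the female-predominant member of mouse kidney, and Cyp4a12b, Cyp4a31 and Cyp4a32 are less studied copies.

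The 6 genes form a cluster on chromosome 4 of the GRCm38 mouse build, in the order Cyp4a12a (ENSMUSG00000066071, chr4:115299046-115332815), Cyp4a12b (ENSMUSG00000078597, chr4:115411624-115439034), Cyp4a14 (ENSMUSG00000028715, chr4:115486200-115496142), Cyp4a10 (ENSMUSG00000066072, chr4:115518264-115533649), Cyp4a31 (ENSMUSG00000028712, chr4:115563649-115579015) and Cyp4a32 (ENSMUSG00000063929, chr4:115600969-115621602). Cyp4a14 lies on the minus strand and the other members on the plus strand. The coding sequences of the GENCODE M21 transcripts fell into 3 sets. Cyp4a12a and Cyp4a12b were identical at 98.5% of 1524 aligned bases. Cyp4a10, Cyp4a31 and Cyp4a32 matched each other at 96% to 97.2%. Cyp4a14 stood alone, with 74.9% to 75.9% identity to any other member. The stretches below, 100 coding bases each in transcript direction, are the windows within a single exon where the copies of a set differ at the most positions. Capitals mark the bases that differ between the copies of a set, 8 positions in exon 6 of the Cyp4a12 pair and 13 positions in exon 2 of the Cyp4a10 set. Cyp4a10 and Cyp4a31 differ from each other at 4 of these 13. The Cyp4a12 windows lie at chr4:115326662-115326761 and chr4:115432915-115433014, and those of Cyp4a10, Cyp4a31 and Cyp4a32 at chr4:115519630-115519729, chr4:115565010-115565109 and chr4:115602260-115602359, all on the plus strand.
Cyp4a12a: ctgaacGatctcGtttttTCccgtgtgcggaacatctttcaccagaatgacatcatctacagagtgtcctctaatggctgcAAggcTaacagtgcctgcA
Cyp4a12b: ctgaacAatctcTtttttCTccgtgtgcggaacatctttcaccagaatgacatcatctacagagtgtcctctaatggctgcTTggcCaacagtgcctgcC
Cyp4a10: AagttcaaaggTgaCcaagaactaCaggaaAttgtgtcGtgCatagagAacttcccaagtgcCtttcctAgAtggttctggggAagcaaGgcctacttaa
Cyp4a31: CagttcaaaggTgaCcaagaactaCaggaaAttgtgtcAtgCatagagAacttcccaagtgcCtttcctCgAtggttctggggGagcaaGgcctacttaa
Cyp4a32: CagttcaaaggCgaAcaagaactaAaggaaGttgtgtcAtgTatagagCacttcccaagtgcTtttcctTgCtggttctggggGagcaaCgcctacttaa

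The deposited counts carry the mark of this similarity. The read length was 100 bases, and 35.8% of the 100-base windows of the Cyp4a12a transcript, 36.2% of those of Cyp4a12b, 12.7% of those of Cyp4a10, 8.2% of those of Cyp4a31 and 20.1% of those of Cyp4a32 occur unchanged in another gene's transcript, against 0.0% for Cyp4a14. Cyp4a14 counts were whole numbers in 47 of 47 libraries, within 0.001 counts. The counts of the other 5 members were fractional in 47 of 47 libraries. The sum of Cyp4a12a and Cyp4a12b was whole in 47 of 47, and so was the sum of Cyp4a10, Cyp4a31 and Cyp4a32, while Cyp4a10 plus Cyp4a31 without Cyp4a32 was whole in 0 of 47. Reads had thus been divided among the copies inside each of these sets and not between sets, and the 2 sums are given beside the single genes below. The submitters' processing notes name 1 genome build, GRCm38, which was made from C57BL/6J. Whether sequence differences of NZO/HlLtJ and CAST/EiJ moved reads from copy to copy was not tested. Whether they kept reads of any member, Cyp4a14 included, from being counted was not tested either.

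Values below are CPM, counts per M (mega) counts of the library, computed from the deposited counts with library sizes scaled by trimmed mean of M values. Library totals ran from 34394546 to 58433712 counts. Kidney identity was checked on 6 markers. Lrp2 of the proximal tubule ran from 4473 to 10242 CPM over the 47 libraries, Umod of the thick ascending limb from 1403 to 5634 CPM, Aqp2 of the collecting duct from 47.5 to 186 CPM and Nphs1 of podocytes from 17.8 to 44.2 CPM. Slc12a1 was at 1059 to 2293 CPM and Slc12a3 at 368 to 1102 CPM. Markers of tissues that a kidney sample could also hold were low. The sum of 3 fat markers was at most 7.25 CPM and that of the 2 adrenal markers in the table at most 3.25 CPM. Of 4 liver genes, Alb reached at most 21.5 CPM, Ahsg 1.24 CPM and Apoa1 1.26 CPM, while Apob, which kidney also expresses, ran from 12 to 1017 CPM. In whole tissue, fewer cells of a type and less RNA per cell cannot be told apart.

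The family changed its make-up between the sexes more than its total. The 6 genes together took 1079 to 1679 CPM in NZO/HlLtJ females and 666 to 1017 CPM in NZO/HlLtJ males. The totals were 785 to 1433 CPM in CAST/EiJ females and 717 to 1172 CPM in CAST/EiJ males, and 924 to 1437 CPM in C57BL/6J females and 584 to 1059 CPM in C57BL/6J males. Over both diets the ranges of females and males overlapped in CAST/EiJ and in C57BL/6J and did not overlap in NZO/HlLtJ. Within a diet every female total was above every male total in each strain, except in CAST/EiJ on 10% fat, where they overlapped. Cyp4a12a supplied a median of 0.211% of the family's counts in NZO/HlLtJ females and 61.4% in NZO/HlLtJ males. In CAST/EiJ these medians were 0.0920% in females and 54.5% in males, and in C57BL/6J 0.0685% in females and 30.9% in males. Cyp4a14 was the mirror image, with a median of 35% in NZO/HlLtJ females and 0.281% in NZO/HlLtJ males, 18.3% in CAST/EiJ females and 0.468% in CAST/EiJ males, and 39.4% in C57BL/6J females and 1.84% in C57BL/6J males.

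Per kilobase of transcript, the scale on which members can be set against each other, the most abundant member in NZO/HlLtJ females on 44% fat was Cyp4a10 at 234 ± 22.2 CPM per kb, beside Cyp4a14 at 208 ± 28.5 and Cyp4a31 at 171 ± 19.9 CPM per kb (SD, n = 4). In NZO/HlLtJ males on 44% fat Cyp4a12a stood at 143 ± 61.7 CPM per kb, Cyp4a31 at 119 ± 23.8, Cyp4a10 at 84 ± 43.6 and Cyp4a14 at 5.18 ± 4.23 CPM per kb (SD, n = 4). Cyp4a32 was the lowest member in most groups and never passed 6.23 CPM in any library. It reached 1.52 to 6.23 CPM in CAST/EiJ females and 0.810 to 1.99 CPM in CAST/EiJ males, and at most 0.712 CPM in the other strains. Its smallest value rests on 1 count in an NZO/HlLtJ male library. The GENCODE M21 transcript of Cyp4a32 has 1530 bases, 1527 of them coding before the stop codon. Those of the other members have 2109 to 2509 bases. The part of this annotation in its low level was not tested.

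**Figure D1:**
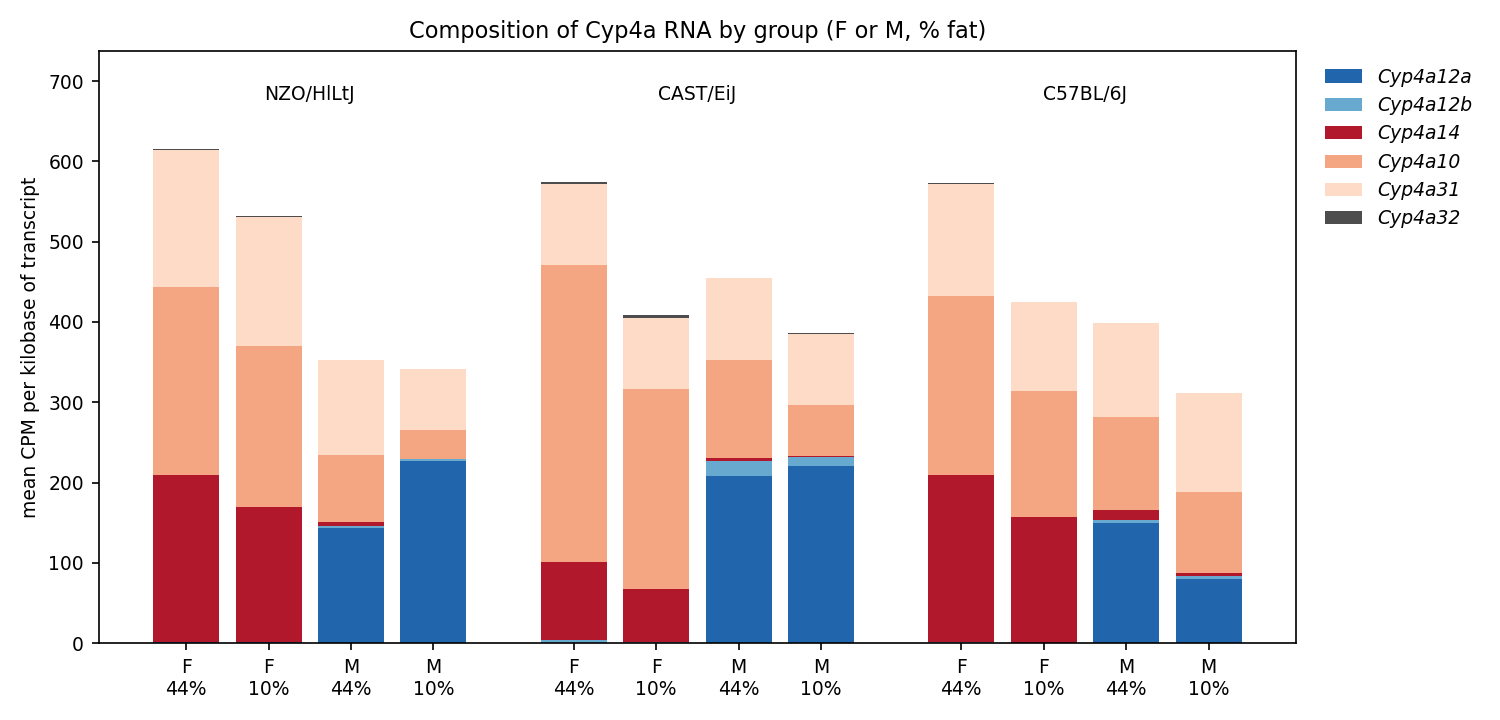
Mean CPM per kilobase of transcript of the 6 Cyp4a genes, stacked, in the 12 groups of strain, sex and diet (n = 4 libraries per group, 3 in CAST/EiJ males on 10% fat). Cyp4a12a is the largest segment of the male bars in NZO/HlLtJ and CAST/EiJ and is too small to see in the female bars, where Cyp4a10, Cyp4a31 and Cyp4a14 make up nearly the whole height.

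Females differed from males at 5 of the 6 genes in each strain, 3 higher and 2 lower, among genes tested of which 49.9% in NZO/HlLtJ, 47.6% in CAST/EiJ and 47.9% in C57BL/6J were called at an adjusted p under 0.05. The medians over the 6 members are no guide here, since members went both ways. The share of called members is above that background in each strain, but with 6 genes in near-identical sets the calls are not independent. Cyp4a12a and Cyp4a12b were the lower ones in every strain. Of the 8 proximal tubule markers, 2 were higher and 4 lower in NZO/HlLtJ females, 3 and 4 in CAST/EiJ females, and 3 and 4 in C57BL/6J females, each against males. Their sum ran from 10415 to 17026 CPM in females and 13245 to 16673 CPM in males.

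Cyp4a12a, the androgen-induced arachidonic acid hydroxylase, was high in males and low in females. On 44% fat it had 2.98, 3.12, 3.80 and 3.52 CPM in NZO/HlLtJ females, against 299, 524, 170.1 and 392 CPM in NZO/HlLtJ males. On 10% fat it had 1.76, 2.47, 2.07 and 2.11 CPM in NZO/HlLtJ females, against 619, 559, 550.4 and 475 CPM in NZO/HlLtJ males. Each female library lay below each male library by a wide gap, and the log2 difference of females minus males over both diets was -7.35 ± 0.29 (SE), 164-fold lower in females, with an edgeR adjusted p of 3.4e-21. CAST/EiJ females on 44% fat had 0.999, 1.88, 1.5 and 0.841 CPM, against 461, 587, 621 and 344 CPM in CAST/EiJ males. On 10% fat CAST/EiJ females had 0.862, 0.851, 0.448 and 0.923 CPM, against 418, 565 and 624 CPM in the 3 CAST/EiJ males. The groups did not overlap on either diet, and the difference was -9.02 ± 0.32, adjusted p = 3.54e-22. C57BL/6J females on 44% fat had 0.941, 1.15, 1.66 and 0.859 CPM, against 276, 249, 663 and 264 CPM in C57BL/6J males. C57BL/6J females on 10% fat had 0.506, 0.759, 0.515 and 0.688 CPM, against 279, 76.7, 189 and 229.7 CPM in C57BL/6J males. The difference was -8.22 ± 0.32, adjusted p = 3.61e-21, and the C57BL/6J males were the most uneven group, with 1 library on 44% fat far above and 1 on 10% fat well below the rest. The female values rest on 18.7 to 200.2 counts per library, a level set by few reads. These counts include reads divided with Cyp4a12b. Reads unique to Cyp4a12a were not counted, so its detection in each female library is not shown.

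**Figure D2:**
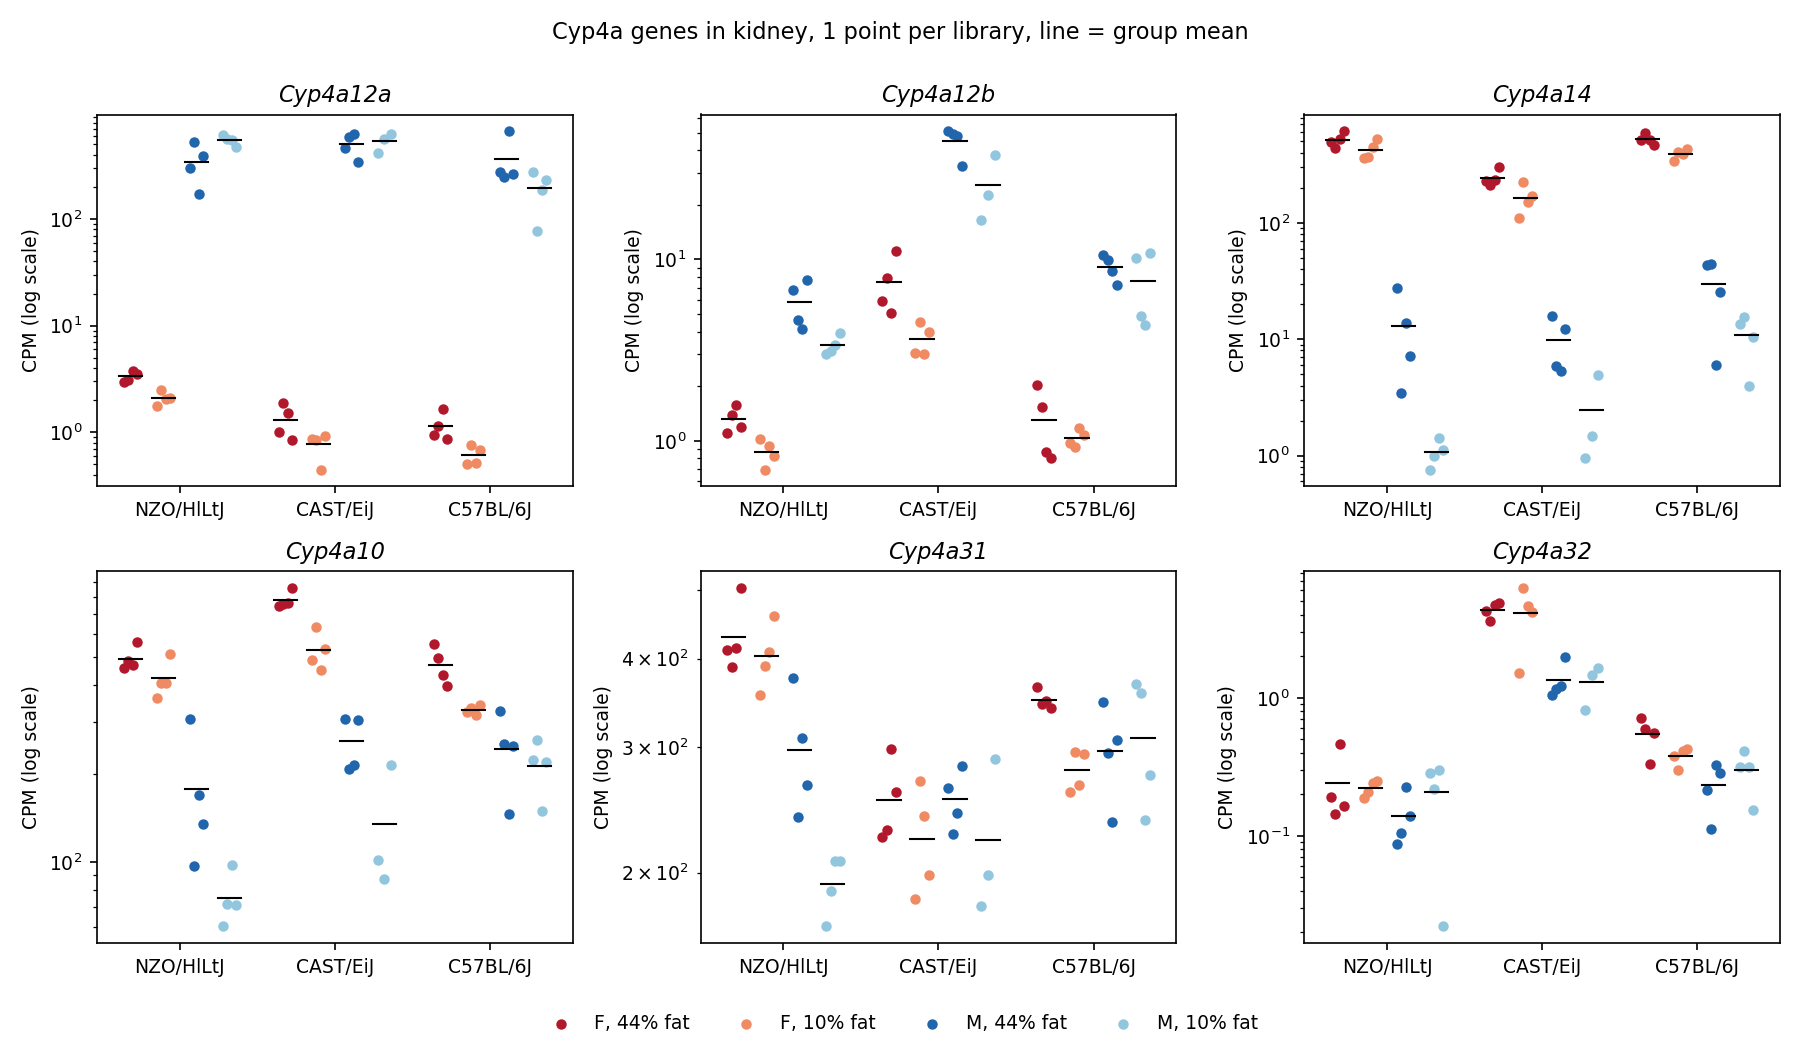
CPM of each of the 6 Cyp4a genes in each of the 47 libraries, 1 panel per gene on a log axis, by strain, sex and diet; points are libraries and short lines group means. Female and male points stand apart for Cyp4a12a and Cyp4a14, for Cyp4a12b within each strain and for Cyp4a10 within each strain and diet, and mix for Cyp4a31 in CAST/EiJ and C57BL/6J.

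Cyp4a12b, the near-copy of Cyp4a12a, showed the same direction. In males it lay far below Cyp4a12a, while in females of CAST/EiJ and C57BL/6J its mean was the higher of the pair (5.57 against 1.04 CPM in CAST/EiJ and 1.17 against 0.884 CPM in C57BL/6J). Its lowest, median and highest CPM were 0.694, 1.06 and 1.57 in NZO/HlLtJ females and 3.03, 4.02 and 7.69 in NZO/HlLtJ males, 3.0, 4.78 and 11.1 in CAST/EiJ females and 16.6, 37.5 and 50.8 in CAST/EiJ males, and 0.804, 1.02 and 2.04 in C57BL/6J females and 4.34, 9.28 and 10.9 in C57BL/6J males. Female and male ranges did not overlap in any strain. The log2 differences of females minus males were -2.04 ± 0.23 in NZO/HlLtJ, -2.71 ± 0.20 in CAST/EiJ and -2.81 ± 0.23 in C57BL/6J, with adjusted p of 3.15e-09, 1e-13 and 8.98e-13 in the order of the strains. These are smaller than those of Cyp4a12a, and the share of the pair's counts given to Cyp4a12b therefore differed between the sexes. It was 21.9% to 36.8% in NZO/HlLtJ females and 0.486% to 2.36% in NZO/HlLtJ males, 77.1% to 93% in CAST/EiJ females and 3.82% to 9.93% in CAST/EiJ males, and 34.3% to 69.5% in C57BL/6J females and 1.28% to 5.96% in C57BL/6J males. The division of shared reads between the copies enters these shares. The sum of the pair, which it does not enter, was lower in females by 118-fold in NZO/HlLtJ, 90.6-fold in CAST/EiJ and 128-fold in C57BL/6J (log2 -6.88 ± 0.28, -6.50 ± 0.27 and -7.00 ± 0.29).

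Cyp4a14 had the opposite pattern, and it ran from 0.760 to 44.4 CPM over the 23 male libraries. On 44% fat it had 499, 438, 529 and 609 CPM in NZO/HlLtJ females, against 27.4, 3.45, 13.6 and 7.17 CPM in NZO/HlLtJ males. On 10% fat it had 357, 364, 445 and 520.1 CPM in NZO/HlLtJ females, against 0.760, 0.988, 1.41 and 1.12 CPM in NZO/HlLtJ males. Females were far above males on both diets, and the gap was widest on 10% fat, where the males were near 1 CPM. The log2 difference was 6.96 ± 0.42, adjusted p = 7.02e-16, 125-fold higher in females. CAST/EiJ females had 231, 209.6, 231 and 299.8 CPM on 44% fat, against 15.8, 5.94, 5.30 and 12.2 CPM in CAST/EiJ males. CAST/EiJ females had 109, 223, 152 and 170.0 CPM on 10% fat, against 0.962, 1.47 and 4.95 CPM in CAST/EiJ males. The groups stood apart on both diets, with a difference of 5.35 ± 0.43, adjusted p = 1.24e-12 (40.9-fold). C57BL/6J females had 511, 594, 514 and 466 CPM on 44% fat, against 43.7, 44.4, 6.0 and 25.5 CPM in C57BL/6J males. C57BL/6J females had 339, 409, 387 and 428 CPM on 10% fat, against 13.4, 15.6, 4.0 and 10.5 CPM in C57BL/6J males. The groups again did not overlap, and the difference was 4.64 ± 0.36, adjusted p = 6.25e-13 (25-fold). Cyp4a14 shared no 100-base window with another gene, so no copy enters these values. Of the 12 group means, the 6 female ones ran from 521 ± 53.2 CPM in C57BL/6J females on 44% fat down to 164 ± 47 CPM in CAST/EiJ females on 10% fat, and the 6 male ones from 29.9 ± 18.2 CPM in C57BL/6J on 44% fat down to 1.07 ± 0.272 CPM in NZO/HlLtJ on 10% fat (SD, n = 4 each). The ranges of the 4 highest groups, the NZO/HlLtJ and C57BL/6J females, overlapped from each to the next, and so did those of the C57BL/6J and NZO/HlLtJ males on 44% fat.

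**Figure D3:**
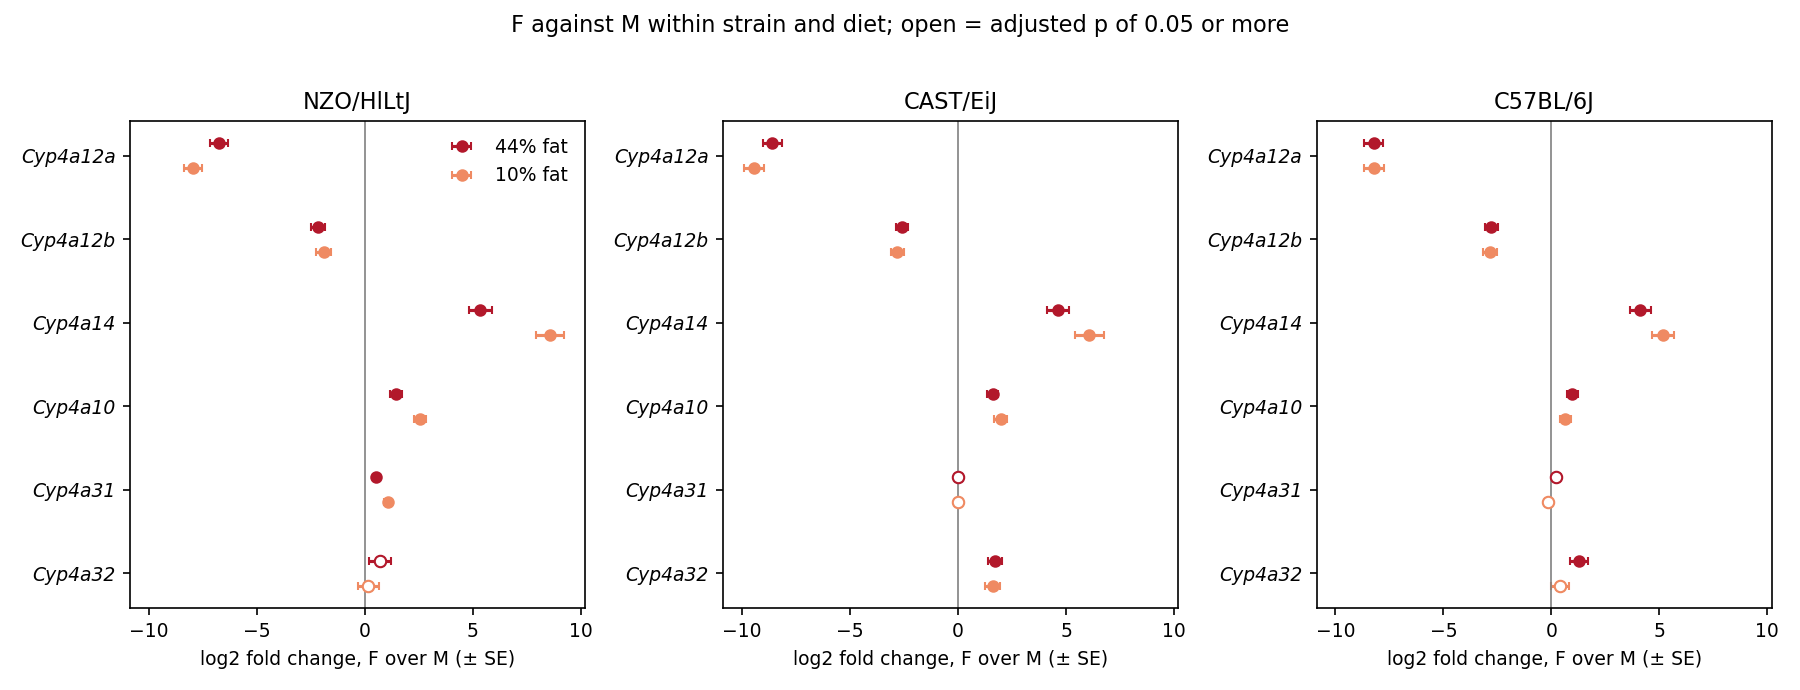
Log2 fold change of females over males for each Cyp4a gene in NZO/HlLtJ, CAST/EiJ and C57BL/6J, on 44% fat and on 10% fat; points are edgeR estimates and bars their standard errors. Cyp4a12a and Cyp4a12b lie below 0 and Cyp4a14 and Cyp4a10 above 0 in every strain and diet, and Cyp4a31 lies above 0 by more than its error on both diets in NZO/HlLtJ only.

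Cyp4a10 was also higher in females, by a smaller amount. In NZO/HlLtJ it had 459, 482, 469 and 562 CPM in females on 44% fat, against 308, 97.2, 169 and 134 CPM in males. On 10% fat NZO/HlLtJ females had 363, 408, 406 and 512 CPM, against 60.4, 72, 97.2 and 71.2 CPM in males. No male library reached the lowest female library, and the log2 difference was 1.99 ± 0.19, adjusted p = 6.52e-11. CAST/EiJ held the highest Cyp4a10 of the study, with 742, 758, 762 and 857 CPM in females on 44% fat, against 308, 207, 214 and 304 CPM in males. On 10% fat CAST/EiJ females had 486, 632, 451 and 533 CPM, against 101, 87.7 and 213 CPM in males. The sexes were separate here too (1.79 ± 0.20, adjusted p = 2.92e-09). In C57BL/6J the gap was narrowest, with 552, 495, 435 and 398 CPM in females on 44% fat, against 326, 252, 146 and 249 CPM in males. On 10% fat C57BL/6J females had 324, 334, 317 and 344 CPM, against 222, 259.5, 149 and 219 CPM in males. The ranges did not overlap within a diet, and the difference was 0.81 ± 0.19, adjusted p = 0.000452. Among the 12 group means, CAST/EiJ females on 44% fat stood highest at 779.7 ± 52 CPM, apart from the next group, CAST/EiJ females on 10% fat at 526 ± 78.3 CPM, and all 6 female means exceeded the highest male mean, 258 ± 55 CPM in CAST/EiJ males on 44% fat (SD, n = 4 each).

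Cyp4a31, next to Cyp4a10 in the cluster, separated the sexes in NZO/HlLtJ. NZO/HlLtJ females had 411, 389.8, 414 and 503 CPM on 44% fat, against 376, 239.6, 309 and 265 CPM in males, and 355, 391, 409 and 459.6 CPM on 10% fat, against 168, 189, 207 and 208 CPM in males. Every female library was above every male library of its diet, and the log2 difference was 0.80 ± 0.10, adjusted p = 4.66e-08. In CAST/EiJ the lowest, median and highest values were 184, 235 and 298 CPM in females and 179, 242 and 289 CPM in males, with a log2 difference of -0.00470 (95% interval -0.22 to 0.21, adjusted p = 0.983). In C57BL/6J they were 259.9, 318 and 365 CPM in females and 235, 301 and 369 CPM in males (0.04 ± 0.10, 95% interval -0.17 to 0.25, adjusted p = 0.783). The ranges of the sexes overlapped on both diets in these strains. Cyp4a32, the lowest member, was higher in females of CAST/EiJ (1.66 ± 0.24, adjusted p = 1.52e-07) and of C57BL/6J (0.84 ± 0.29, adjusted p = 0.0166). In NZO/HlLtJ its difference was 0.42 ± 0.34 (adjusted p = 0.322). The C57BL/6J call was lost when replicate 2 of the males on 44% fat was left out (adjusted p = 0.0508), with limma-voom (adjusted p = 0.0705) and with limma on the variance-stabilized table (adjusted p = 0.0664). The sum of Cyp4a10, Cyp4a31 and Cyp4a32, free of the division among these copies, was higher in females by 1.29 ± 0.13 in NZO/HlLtJ, 1.04 ± 0.14 in CAST/EiJ and 0.42 ± 0.13 in C57BL/6J, with adjusted p of 1.87e-10, 6.71e-08 and 0.00789.

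The female and male libraries of each strain were spread over 3 runs of sample ID numbers (77, 81 and 89), whose meaning the labels do not give. Within these runs the log2 difference of females minus males, on CPM plus 0.1, was -7.52, -6.88 and -7.09 for Cyp4a12a in NZO/HlLtJ, -8.74, -8.68 and -9.16 in CAST/EiJ and -8.45, -7.06 and -8.41 in C57BL/6J. For Cyp4a14 it was 7.05, 5.59 and 8.71 in NZO/HlLtJ, 5.28, 5.90 and 4.65 in CAST/EiJ and 4.10, 4.15 and 5.62 in C57BL/6J. The direction was the same in each run for both genes. For Cyp4a10 these values were 1.99, 1.60 and 2.62 in NZO/HlLtJ, 1.77, 2.18 and 1.21 in CAST/EiJ and 0.65, 0.60 and 0.99 in C57BL/6J. In NZO/HlLtJ, run 81 holds females on 10% fat and males on 44% fat and run 89 the reverse, so that run, diet and sex cannot be told apart inside these runs.

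The size of the sex difference itself depended on strain for some members. Between NZO/HlLtJ and C57BL/6J, 3 of 6 members had a larger difference of females minus males in NZO/HlLtJ, where 2.6% of all genes tested had a higher value in NZO/HlLtJ. These were Cyp4a14 (difference of log2 differences 2.32 ± 0.50, adjusted p = 0.00303), Cyp4a10 (1.18 ± 0.26, adjusted p = 0.00373) and Cyp4a31 (0.76 ± 0.15, adjusted p = 0.000781). Between CAST/EiJ and C57BL/6J, 1 of 6 members was called, near the 13.2% of genes tested. It was Cyp4a10 (0.98 ± 0.27, adjusted p = 0.00986). Between NZO/HlLtJ and CAST/EiJ, 4 of 6 were called, against 14.3%. Cyp4a31 (0.80 ± 0.15, adjusted p = 0.000144), Cyp4a12a (1.67 ± 0.41, adjusted p = 0.00379) and Cyp4a14 (1.61 ± 0.56, adjusted p = 0.0474) had the higher value in NZO/HlLtJ and Cyp4a32 the lower (-1.23 ± 0.43, adjusted p = 0.0438). The Cyp4a14 and Cyp4a32 calls were near the threshold, and when each library was left out in turn they held in 8 and 10 of 31 fits. The Cyp4a12a, Cyp4a14 and Cyp4a32 calls were lost with limma-voom (adjusted p = 0.12, 0.22 and 0.253). That of Cyp4a14 was also lost with no filter (adjusted p = 0.058), and that of Cyp4a32 with no run term and with only the strains compared (adjusted p = 0.0527 and 0.0611). A positive value for Cyp4a12a means a smaller female deficit, and it depends on how reads were divided with Cyp4a12b. For the sum of the pair the value was -0.38 ± 0.34 (adjusted p = 0.537), and for the sum of Cyp4a10, Cyp4a31 and Cyp4a32 it was 0.25 ± 0.19 (adjusted p = 0.446). For that set the other values were 0.87 ± 0.18 between NZO/HlLtJ and C57BL/6J (adjusted p = 0.00198) and 0.62 ± 0.19 between CAST/EiJ and C57BL/6J (adjusted p = 0.0206).

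The diet comparison asked which members differed between 44% and 10% fat within a strain. In NZO/HlLtJ, over both sexes, Cyp4a14, Cyp4a10 and Cyp4a31 rose on 44% fat, 3 of 6 members, where 1.98% of all genes tested were called higher. The median log2 difference was 0.53 over the 6 members and -0.00156 over all genes tested. In NZO/HlLtJ males alone the same 3 members were called higher, against 1.83% of genes. These calls in males alone were not checked with other tools or with libraries left out. In NZO/HlLtJ females 0 of 6 were called by edgeR, against 0.149%, and 0 of 6 had an unadjusted p under 0.05.

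Among NZO/HlLtJ males, Cyp4a14 had 27.4, 3.45, 13.6 and 7.17 CPM on 44% fat, against 0.760, 0.988, 1.41 and 1.12 CPM on 10% fat. Each library on 44% fat was above each on 10% fat, but the libraries on 44% fat also differed from each other by several fold. The log2 difference was 3.57 ± 0.64, adjusted p = 0.00144, 11.9-fold higher. Cyp4a10 had 308, 97.2, 169 and 134 CPM on 44% fat, against 60.4, 72, 97.2 and 71.2 CPM on 10% fat in these males. The ranges touched at 97.2 CPM, and the difference was 1.28 ± 0.27, adjusted p = 0.00773. Cyp4a31 had 376, 239.6, 309 and 265 CPM on 44% fat, against 168, 189, 207 and 208 CPM on 10% fat, with no overlap (0.63 ± 0.15, adjusted p = 0.0179). Replicate 1 on 44% fat was the highest NZO/HlLtJ male for all 3 genes. The sum of Cyp4a10, Cyp4a31 and Cyp4a32 was 1.79-fold higher on 44% fat (log2 0.84 ± 0.19, adjusted p = 0.0113). Cyp4a12a, the main male member, had 299, 524, 170.1 and 392 CPM on 44% fat, against 619, 559, 550.4 and 475 CPM on 10% fat. Its log2 difference was -0.60 ± 0.31 and did not pass the test (adjusted p = 0.303), nor did that of Cyp4a12b, 0.84 ± 0.30 (adjusted p = 0.117), although its 6.82, 4.62, 4.11 and 7.69 CPM on 44% fat all lay above the 3.03, 3.14, 3.35 and 3.94 CPM on 10% fat. Other tissue markers in the same males were as follows. The 4 liver genes summed to 357 to 536 CPM on 44% fat and 185 to 354 CPM on 10% fat, nearly all of it Apob, while Alb was at 3.53 to 4.38 CPM on 44% fat and 3.38 to 6.47 CPM on 10% fat. The 8 proximal tubule markers summed to 13616 to 14466 CPM on 44% fat and 13263 to 14319 CPM on 10% fat. Among the 6 kidney markers, Aqp2 was higher (0.88 ± 0.22, adjusted p = 0.0242) and Umod lower (-0.38 ± 0.07, adjusted p = 0.00268) on 44% fat. The part of these markers in the result was not tested.

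NZO/HlLtJ females had 499, 438, 529 and 609 CPM of Cyp4a14 on 44% fat, against 357, 364, 445 and 520.1 CPM on 10% fat, overlapping ranges with a log2 difference of 0.34 ± 0.46 (95% interval -0.59 to 1.27, adjusted p = 0.886). Cyp4a10 differed by 0.18 ± 0.27 (95% interval -0.37 to 0.72, adjusted p = 0.906) and Cyp4a31 by 0.09 ± 0.15 (adjusted p = 0.915) in the females. These errors come from the spread per gene over all 47 libraries, males included. Cyp4a12a and Cyp4a12b were each higher in every NZO/HlLtJ female library on 44% fat than in every one on 10% fat. Their sum was 4.08 to 5.37 CPM on 44% fat and 2.79 to 3.17 CPM on 10% fat (0.54 ± 0.39, adjusted p = 0.717). The proximal tubule sum was 13051 to 14889.9 CPM in females on 44% fat and 15438 to 17026 CPM in females on 10% fat. The direct test of the diet effect in females minus that in males called 0 of 6 members, against 0.00532% of genes tested. Its estimates were -3.23 ± 0.82 for Cyp4a14 (95% interval -4.89 to -1.56, adjusted p = 0.217) and -1.10 ± 0.40 for Cyp4a10 (adjusted p = 0.31). A different response of the sexes was therefore not shown by this test over all genes. At an unadjusted p under 0.05 there were 4 of 6 members, limma-voom called 0, and the DESeq2 Wald test called Cyp4a14 here (adjusted p = 0.0277). Over both sexes, the log2 differences in NZO/HlLtJ were 1.96 ± 0.38, adjusted p = 0.00286 for Cyp4a14, 0.73 ± 0.18, adjusted p = 0.0206 for Cyp4a10 and 0.36 ± 0.10, adjusted p = 0.0449 for Cyp4a31. Cyp4a14 kept its call in 16 of 16 fits that left out 1 library, Cyp4a10 in 14 and Cyp4a31 in 5, so the Cyp4a31 call depends on single libraries. With limma-voom the Cyp4a14 and Cyp4a31 calls were lost (adjusted p = 0.0736 and 0.0515), that of Cyp4a31 also with no filter and on the variance-stabilized table (adjusted p = 0.0555 and 0.0505), and with only the NZO/HlLtJ libraries in the fit that of Cyp4a10 (adjusted p = 0.125). Cyp4a10 lost its call without replicate 1 of the males on 10% fat or without replicate 1 of the males on 44% fat (adjusted p up to 0.106). In run 77, the only ID run with both diets in each sex, the males' differences were 3.35 for Cyp4a14, 1.39 for Cyp4a10 and 0.75 for Cyp4a31, from 2 libraries on each diet.

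In CAST/EiJ, 2 of 6 members rose on 44% fat over both sexes, Cyp4a12b and Cyp4a10, where 0.543% of genes tested were called higher. Cyp4a12b had 5.88, 7.92, 5.06 and 11.1 CPM in females on 44% fat, against 3.05, 4.50, 3.0 and 3.97 CPM on 10% fat, and 50.8, 49.3, 48.1 and 32.8 CPM in males on 44% fat, against 16.6, 22.8 and 37.5 CPM on 10% fat. The female ranges stood apart and the male ranges overlapped, and the log2 difference was 0.95 ± 0.20, adjusted p = 0.0142. Cyp4a12a, which shares reads with it, differed by 0.37 ± 0.33 (adjusted p = 0.682), and the sum of the pair by 0.53 ± 0.24 (adjusted p = 0.32). Cyp4a10, at the levels given above, differed by 0.77 ± 0.19, adjusted p = 0.0417, and each CAST/EiJ female on 44% fat exceeded each on 10% fat. This call held in 4 of 15 fits that left out 1 library, and the call of Cyp4a12b in 12. Both were lost with only the CAST/EiJ libraries in the fit (adjusted p = 0.113 for Cyp4a10 and 0.127 for Cyp4a12b). The sum of Cyp4a10, Cyp4a31 and Cyp4a32 differed by 0.50 ± 0.14 and was not called (adjusted p = 0.0657). Cyp4a14 differed by 1.28 ± 0.39 and missed the threshold (adjusted p = 0.0965), while the DESeq2 Wald test called it (1.30, adjusted p = 0.0290). With edgeR it was also called without replicate 3 of the males on 10% fat (adjusted p = 0.0402). In CAST/EiJ males its 4 libraries on 44% fat were all above the 3 on 10% fat, with a difference of 2.00 ± 0.64 (adjusted p = 0.146), and within the ID runs it was 3.90, 1.86 and 1.29. Within a single sex, 0 of 6 members were called in CAST/EiJ, against 0.144% of genes in females and 0.58% in males, while 2 in females and 3 in males had an unadjusted edgeR p under 0.05. CAST/EiJ males on 10% fat are the group of 3, and 1 of its libraries, replicate 3, had Cyp4a10, Cyp4a14 and Cyp4a12b above the other 2.

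In C57BL/6J, 0 of 6 members were called for diet over both sexes, where 0.0266% of genes tested were called, and 0 of 6 in females (0% of genes) or in males (0.00532%). DESeq2 and limma-voom also called 0 over both sexes. At an unadjusted p under 0.05 there were 2 members over both sexes, 1 in females and 2 in males. Over both sexes these were Cyp4a14 and Cyp4a12a, with estimates of 0.94 ± 0.32 and 0.91 ± 0.33 (edgeR adjusted p = 0.592 and 0.636). C57BL/6J females on 44% fat had Cyp4a14, Cyp4a10 and Cyp4a31 above females on 10% fat in every library. The females' log2 differences were 0.41 ± 0.43, 0.51 ± 0.26 and 0.33 ± 0.15 for these genes, with adjusted p of 1, 1 and 1. These errors also come from the spread per gene over all 47 libraries, males included. Cyp4a12a stood apart in C57BL/6J females too, at 0.859 to 1.66 CPM on 44% fat and 0.506 to 0.759 CPM on 10% fat. C57BL/6J males had 43.7, 44.4, 6.0 and 25.5 CPM of Cyp4a14 on 44% fat, against 13.4, 15.6, 4.0 and 10.5 CPM on 10% fat, overlapping ranges. The test of the diet effect between strains called 0 of 6 members for NZO/HlLtJ minus C57BL/6J (0.0373% of genes), for CAST/EiJ minus C57BL/6J (0.0532%) and for NZO/HlLtJ minus CAST/EiJ (1.28%). DESeq2 and limma-voom also called 0, and 1, 1 and 0 members in the same order had an unadjusted p under 0.05. For Cyp4a14 the NZO/HlLtJ minus C57BL/6J estimate was 1.02 ± 0.51 (95% interval -0.01 to 2.05). The calls in NZO/HlLtJ and CAST/EiJ are thus not shown to differ from C57BL/6J.

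**Figure D4:**
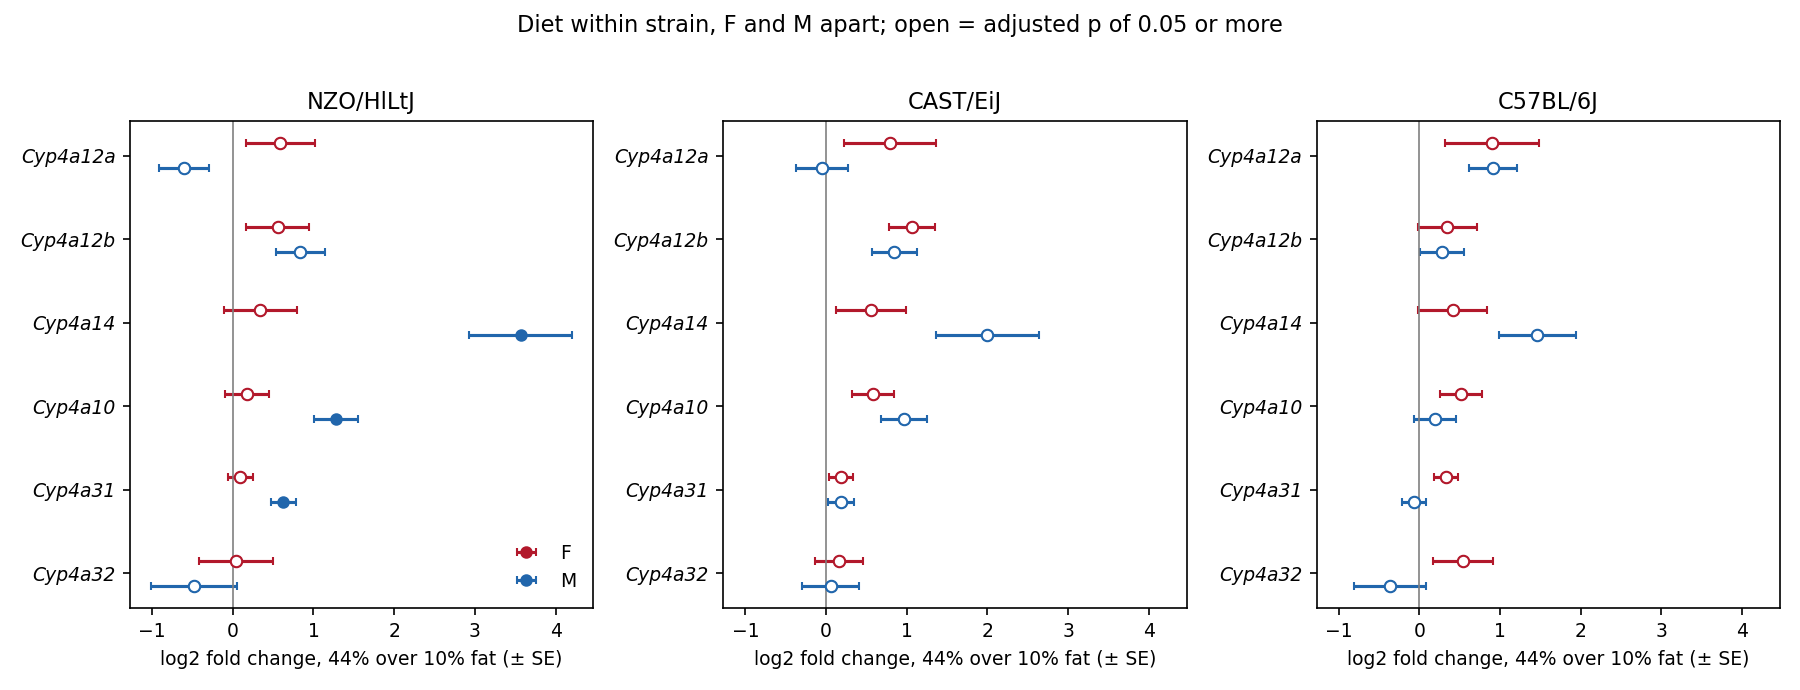
Log2 fold change of 44% over 10% fat for each Cyp4a gene in females and in males of NZO/HlLtJ, CAST/EiJ and C57BL/6J; points are edgeR estimates and bars their standard errors. The largest values are those of Cyp4a14 in NZO/HlLtJ and CAST/EiJ males, and the Cyp4a12a values lie on both sides of 0.

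The strains were set against each other on 10% fat. In NZO/HlLtJ males against C57BL/6J males, 1 member was higher and 4 were lower, against 27.9% of genes called. Cyp4a12a was higher, at 619, 559, 550.4 and 475 CPM in NZO/HlLtJ males and 279, 76.7, 189 and 229.7 CPM in C57BL/6J males (1.50 ± 0.30, adjusted p = 0.000235). Cyp4a14 was lower, at 0.760, 0.988, 1.41 and 1.12 CPM in NZO/HlLtJ males and 13.4, 15.6, 4.0 and 10.5 CPM in C57BL/6J males (-3.31 ± 0.64, adjusted p = 0.000122), and the groups overlapped for neither gene. Cyp4a10 (-1.52 ± 0.27, adjusted p = 3.5e-05), Cyp4a12b (-1.17 ± 0.29, adjusted p = 0.00208) and Cyp4a31 (-0.67 ± 0.15, adjusted p = 0.000633) were also lower in NZO/HlLtJ males. The sum of the Cyp4a12 pair was higher (1.45 ± 0.30, adjusted p = 0.000279). Cyp4a12b was only 2.24% to 5.96% of the pair's counts in these C57BL/6J males, so the sum could not show its lower level. The sum of the Cyp4a10 set was lower (-0.96 ± 0.19, adjusted p = 0.000111). On 44% fat only Cyp4a14 was called between males of these strains (-1.21 ± 0.47, adjusted p = 0.0498). That is 1 of 6 members, near the 15.2% of genes called lower. The groups overlapped, at 3.45 to 27.4 CPM in NZO/HlLtJ and 6.0 to 44.4 CPM in C57BL/6J males. This call was not checked with other tools or with libraries left out. In NZO/HlLtJ females against C57BL/6J females on 10% fat, 2 members were higher, against 10.9% of genes called higher. They were Cyp4a12a (1.76 ± 0.54, adjusted p = 0.0145) and Cyp4a31 (0.55 ± 0.15, adjusted p = 0.00541). The Cyp4a12a call was lost with limma-voom (adjusted p = 0.277) and with limma on the variance-stabilized table (adjusted p = 0.0666). Neither call held for the sums, 0.87 ± 0.43, adjusted p = 0.154 for the Cyp4a12 pair and 0.45 ± 0.18, adjusted p = 0.0768 for the Cyp4a10 set. Cyp4a14 did not differ beyond its error (0.10 ± 0.44, 95% interval -0.79 to 0.98).

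CAST/EiJ was marked by its minor copies. In CAST/EiJ females against C57BL/6J females on 10% fat, 3 members were higher and 1 lower, against 48.8% of genes called. Cyp4a32 had 1.52, 6.23, 4.59 and 4.18 CPM in CAST/EiJ females and 0.380, 0.299, 0.412 and 0.427 CPM in C57BL/6J females, 10.2-fold higher (3.35 ± 0.35, adjusted p = 1.26e-10). Cyp4a12b was 3.46-fold higher (1.79 ± 0.34, adjusted p = 3.05e-05), and Cyp4a10 was higher by 0.66 ± 0.26 (adjusted p = 0.0361), a call kept in 2 of 8 fits that left out 1 library. Cyp4a14 was lower in CAST/EiJ females (-1.24 ± 0.44, adjusted p = 0.0199), a call lost without replicate 1 of the CAST/EiJ females or replicate 4 of the C57BL/6J females on 10% fat (adjusted p up to 0.0717). In CAST/EiJ males against C57BL/6J males, 3 members were higher and 2 lower, against 46.4%. Cyp4a32 (2.14 ± 0.40, adjusted p = 2.6e-05), Cyp4a12b (1.77 ± 0.28, adjusted p = 2.89e-06) and Cyp4a12a (1.51 ± 0.32, adjusted p = 0.000214) were higher, and Cyp4a14 (-2.15 ± 0.64, adjusted p = 0.00572) and Cyp4a31 (-0.48 ± 0.16, adjusted p = 0.0133) lower. The Cyp4a31 call held in 3 of 7 fits that left out 1 library (adjusted p up to 0.103). Cyp4a10 missed the threshold in these males (-0.67 ± 0.28, adjusted p = 0.0528), but was called lower under each of the 8 other settings (adjusted p 0.0232 to 0.0494). These are the comparisons in which the division of reads among copies and the C57BL/6J build could matter most. With the copies summed, the Cyp4a12 pair was higher in CAST/EiJ males by 1.53 ± 0.32 (adjusted p = 0.000143) and in CAST/EiJ females by 1.36 ± 0.41 (adjusted p = 0.0065), and the Cyp4a10 set differed by -0.55 ± 0.20 in males (adjusted p = 0.0232) and 0.30 ± 0.18 in females (adjusted p = 0.18). Cyp4a14, with no such copy, was lower in CAST/EiJ in both sexes. Its call in males was lost with limma-voom (adjusted p = 0.0631) and without replicate 1 of the CAST/EiJ males on 10% fat (adjusted p = 0.0517). An effect of the build on its counts was not tested.

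Between NZO/HlLtJ and CAST/EiJ females on 10% fat, 5 of 6 members differed, against 46.9% of genes. Cyp4a14 was higher in NZO/HlLtJ, at 357, 364, 445 and 520.1 CPM in NZO/HlLtJ females and 109, 223, 152 and 170.0 CPM in CAST/EiJ females (1.34 ± 0.45, adjusted p = 0.0154), as were Cyp4a31 (0.87 ± 0.15) and Cyp4a12a (1.48 ± 0.53). The Cyp4a14 call was lost without replicate 1 of the CAST/EiJ females (adjusted p = 0.0627). The Cyp4a12a call was lost without replicate 3 of those females (adjusted p = 0.0591), with limma-voom (adjusted p = 0.253) and with limma on the variance-stabilized table (adjusted p = 0.0697). Cyp4a32 (-4.05 ± 0.39) and Cyp4a12b (-2.02 ± 0.35) were lower. In males 3 of 6 were lower in NZO/HlLtJ, against 24.3% of genes, namely Cyp4a12b (-2.94 ± 0.30), Cyp4a32 (-2.61 ± 0.42) and Cyp4a10 (-0.85 ± 0.28). The Cyp4a10 call was lost without replicate 3 of the CAST/EiJ males on 10% fat (adjusted p = 0.434). None of these copies' calls held when the copies were summed. A sum cannot show a change of a copy that makes up little of it. Cyp4a32 was 0.226% to 0.687% of its set's counts in CAST/EiJ females on 10% fat and 0.287% to 0.504% in the males. Cyp4a12b was 3.82% to 5.67% of its pair's counts in those males. For these copies the sums therefore do not bear on the calls. In females the Cyp4a12 pair differed by -0.50 ± 0.39, adjusted p = 0.31 and the Cyp4a10 set by 0.15 ± 0.19, adjusted p = 0.535, and in males by -0.07 ± 0.32, adjusted p = 0.868 and -0.42 ± 0.20, adjusted p = 0.0802. Cyp4a12a, the main male member, differed by -0.01 ± 0.33 between NZO/HlLtJ and CAST/EiJ males (95% interval -0.67 to 0.66).

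Libraries of the same group also differed from each other in a shared way. The log2 CPM of each library minus its group mean was compared between genes within each sex, 12 relations in all, chosen after the values were seen, with permutation of libraries within groups. In males, Cyp4a10 and Cyp4a14 deviated together (Pearson r = 0.93, Spearman rho = 0.92, n = 23, adjusted permutation p = 4e-05 for r and 6e-05 for rho). The unadjusted p of 1e-05 is the smallest that 100000 permutations can give. Without the 2 libraries farthest from the median r was 0.92, and within the ID runs it was 0.97, 0.86 and 0.97. Cyp4a31 and Cyp4a14 did the same in males (r = 0.90, rho = 0.87, adjusted permutation p = 4e-05 for r and 8e-05 for rho, r without the 2 farthest libraries 0.88, within runs 0.93, 0.78 and 0.92). In females the same relations were weaker. For Cyp4a10 and Cyp4a14 r was 0.71 and rho 0.66 (n = 24, adjusted permutation p = 0.00318 and 0.00672, r without the 2 farthest libraries 0.57, within runs 0.41, 0.88 and 0.96). For Cyp4a31 and Cyp4a14 it was 0.72, with rho 0.66 (adjusted permutation p = 0.00751 and 0.0138, r without the 2 farthest 0.74, within runs 0.75, 0.65 and 0.33). Cyp4a10 and Cyp4a31 share reads, so their own correlation (0.90 in males, 0.58 in females) can hold a part that comes from counting. Cyp4a12a did not follow. Against Cyp4a14 in males its r was -0.53 and rho -0.53, which did not pass the correction (adjusted permutation p = 0.0852 and 0.0598). Without the 2 farthest libraries r was -0.38, and within the ID runs it was -0.37, -0.86 and -0.57. Its r in males was -0.44 against Cyp4a10 and -0.40 against Cyp4a31 (adjusted permutation p = 0.112 and 0.184). In females its r was 0.16 against Cyp4a10, 0.03 against Cyp4a31 and -0.01 against Cyp4a14.

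**Figure D5:**
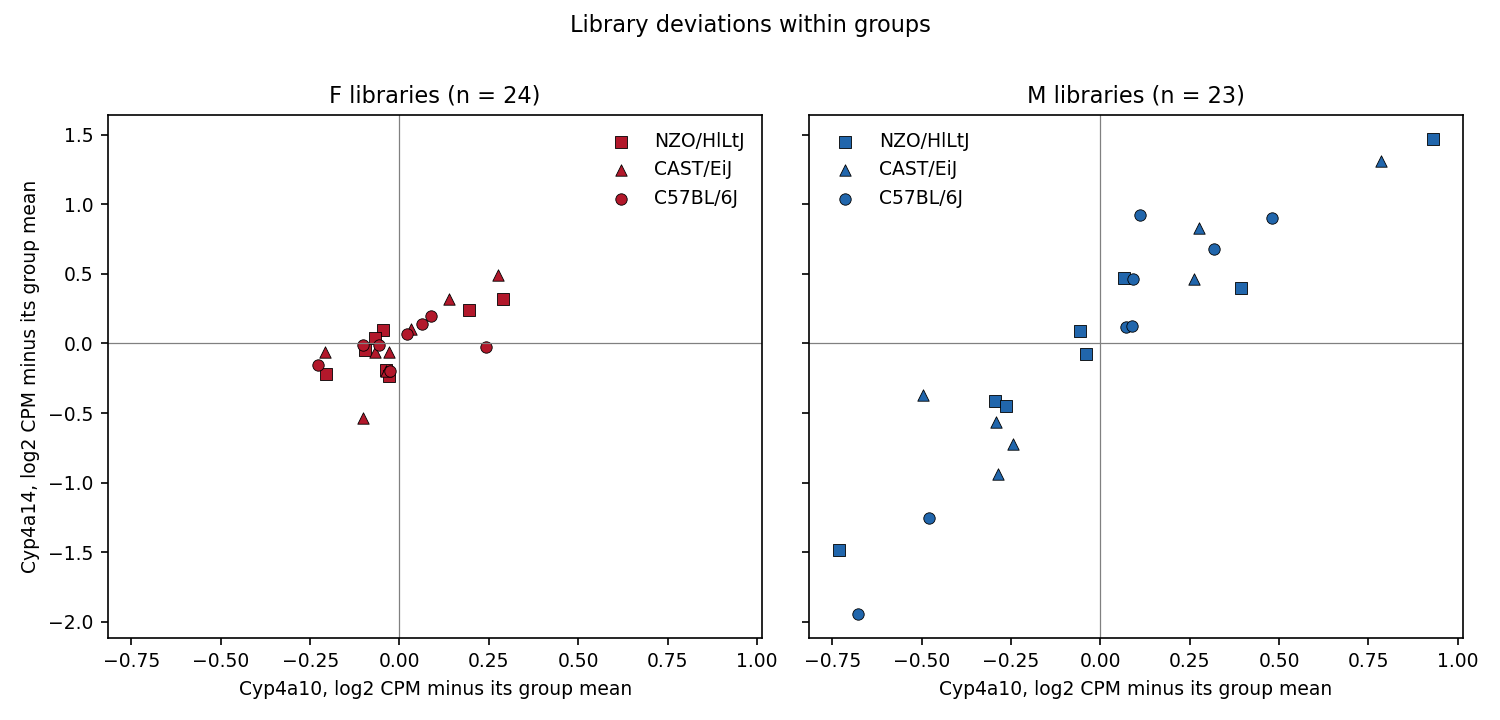
Log2 CPM of Cyp4a10 (x axis) against Cyp4a14 (y axis), each minus its group mean, for the 24 female and the 23 male libraries in separate panels; each point is a library. In males the points lie along a rising line over several log2 units of Cyp4a14 (r = 0.93), and in females both genes vary within a much smaller range (r = 0.71).

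Over the 12 group means of log2 CPM, a description with no test, the 3 genes of 11823 searched that were most like Cyp4a12a were Gpr137b (0.99), Mpped1 (0.99) and Rgl1 (0.99), with Pearson r in parentheses. For Cyp4a14 they were Hip1 (0.99), Sfrp1 (0.98) and Myo1d (0.98), and for Cyp4a10 Acaa2 (0.96), Mecom (0.95) and Nes (0.94), of which Acaa2 is a mitochondrial enzyme of fatty acid oxidation. Those most like Cyp4a31 were Baiap2l1 (0.87), Hipk2 (0.86) and Acly (0.84), of which Acly makes acetyl-CoA for lipid synthesis. Those most like Cyp4a12b were Mast2 (0.97), Ttc13 (0.97) and Cog4 (0.97), and those most like Cyp4a32 Kng1 (0.99), Plppr1 (0.99) and Il33 (0.98). Within the family, the group means of Cyp4a12a and Cyp4a14 ran against each other (r = -0.94) and those of Cyp4a10 and Cyp4a14 together (r = 0.90). The values of Cyp4a12a, Cyp4a14 and Cyp4a10 follow the split of females and males, which the groups share. Those of Cyp4a32 went with strain. Its group means were 1.31 to 4.35 CPM in CAST/EiJ groups of both sexes and at most 0.550 CPM in the other strains. Its r was -0.32 with Cyp4a12a and 0.14 with Cyp4a14, and that of Cyp4a31 with Cyp4a12a was -0.40.

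Genes of the pathways around the family were read from lists, chosen with earlier results of these data known, so their counts are no independent test. Of 7 androgen-responsive kidney genes, 7 were lower in females in each strain, with median log2 differences of -3.85 in NZO/HlLtJ, -2.62 in CAST/EiJ and -4.62 in C57BL/6J, against 0.04, 0.05 and 0.05 over all genes tested. The organic anion transporter gene Slco1a1 had log2 differences of -13.52 ± 0.38, -11.53 ± 0.34 and -13.06 ± 0.36 in the same order of strains, and Kap, the kidney androgen-regulated protein, -1.71 ± 0.07, -0.70 ± 0.07 and -1.64 ± 0.07. Over both sexes Kap, 1 of the 7, was lower on 44% fat in NZO/HlLtJ (-0.39 ± 0.07, adjusted p = 0.000977). In CAST/EiJ and C57BL/6J 0 of 7 were called for diet. Of all genes tested, 3.62%, 0.99% and 0.0266% were called in the same order of strains. Summed CPM of the 7 was lower on 44% fat without overlap in NZO/HlLtJ males (17803 to 25143 against 26703 to 35400). The same held for CAST/EiJ males (18040 to 24961 against 25431 to 27569) and NZO/HlLtJ females (6325 to 6675 against 7188 to 8441). Ranges overlapped in CAST/EiJ females and both sexes of C57BL/6J. These sums were not tested. Between the sexes 49.9% of all genes tested were called in NZO/HlLtJ, 47.6% in CAST/EiJ and 47.9% in C57BL/6J, beside which the following counts stand. Of 13 regulators and partners, females minus males gave 1 higher and 7 lower in NZO/HlLtJ, 2 higher and 7 lower in CAST/EiJ and 3 higher and 6 lower in C57BL/6J. Ephx2, the soluble epoxide hydrolase, was lower in females in each strain (-1.74 ± 0.07, -2.09 ± 0.07 and -1.85 ± 0.07), and Prlr, the prolactin receptor, higher (5.53 ± 0.30, 2.86 ± 0.29 and 5.03 ± 0.29). For diet in NZO/HlLtJ, Ghr, the growth hormone receptor, was the 1 member called (-0.18 ± 0.05, adjusted p = 0.0426), and Ppara itself differed by 0.36 ± 0.11 and missed the threshold (adjusted p = 0.0683). None of the 13 was called for diet over both sexes in CAST/EiJ or in C57BL/6J. Of the other Cyp4 genes, 9 of the 11 in the table were tested. Females minus males gave 3 higher and 2 lower in NZO/HlLtJ, 4 higher and 2 lower in CAST/EiJ and 3 higher and 2 lower in C57BL/6J. Cyp4b1 was lower in females in each strain (-4.12 ± 0.19, -4.85 ± 0.20 and -5.00 ± 0.20) and Cyp4f14, a leukotriene hydroxylase, higher (2.15 ± 0.13, 4.25 ± 0.17 and 2.21 ± 0.14). For diet over both sexes 0 of 9 were called in any strain, beside 3.62%, 0.99% and 0.0266% of all genes tested in the same order. With 9 or 13 genes, 0 or 1 called is near these shares.

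Known targets of PPARα outside the family were among the diet calls in NZO/HlLtJ and CAST/EiJ. Of 32 tested, 5 were higher and 1 lower on 44% fat in NZO/HlLtJ over both sexes, with a median log2 difference of 0.10 against -0.00156 over all genes. In CAST/EiJ 7 were higher and 0 lower, with a median of 0.17 against -0.00254. In C57BL/6J 0 were called, with a median of 0.10 against 0.00101. Of all genes tested, 1.98% were called higher on 44% fat in NZO/HlLtJ, 0.543% in CAST/EiJ, and 0.0266% were called in either direction in C57BL/6J. In NZO/HlLtJ the called ones included Plin2, a lipid droplet coat protein (0.54 ± 0.09, adjusted p = 0.000265), and Vnn1 (0.48 ± 0.12), while Acadm, the medium-chain acyl-CoA dehydrogenase, was lower (-0.31 ± 0.08, adjusted p = 0.0205). In NZO/HlLtJ males 5 were higher and 0 lower, against 1.83% of all genes called higher, and in NZO/HlLtJ females 0 were called. In CAST/EiJ the called ones included Acaa1b, a peroxisomal thiolase (0.58 ± 0.12, adjusted p = 0.0133), Ucp2 (0.33 ± 0.07, adjusted p = 0.0102) and Plin2 (0.41 ± 0.09, adjusted p = 0.0145). Between the sexes the list had no common direction. Females minus males gave 17 higher and 5 lower in NZO/HlLtJ, 10 higher and 10 lower in CAST/EiJ and 11 higher and 11 lower in C57BL/6J, where 49.9%, 47.6% and 47.9% of all genes tested were called in the same order of strains.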

How the data were processed

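Expected counts per gene, as the authors deposited them, form a table in which 21% of the values are not whole numbers. A variance-stabilized table of the same libraries on a log2 scale was also deposited. Per the submitters' processing notes, the build was GRCm38 and the tools include DESeq2. The aligner and counter are not given in the sources used here. Per the labels' protocols, spike-in RNA was added and read pairs of 100 bases were sequenced.

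Counts were rounded. Genes passing edgeR's filterByExpr over the 12 groups (18786 kept, 3688 not) were fitted with edgeR 4.0.16 in R 4.3.3, by robust quasi-likelihood with TMM scaling, group means and an additive term for 3 runs of sample ID numbers (33 residual degrees of freedom). All adjusted p-values of genes are Benjamini-Hochberg values from its F test over the genes tested, with a threshold of 0.05, unless another tool is named, and standard errors were derived from F. The run term called 0 genes. CPM used TMM-scaled sizes. The model was tested on simulated data. Replicate pairs within groups differed by more than counting noise, so no library was merged.

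The alternatives were DESeq2 1.42.0 (size factors, Wald test), limma 3.58.1 (voom, and on the variance-stabilized table), no filter, no run term, only the strains compared, near-identical copies summed, unscaled library sizes for CPM and leaving out each library. Permutations numbered 100000. Members were named in every contrast, the 3 genes most like each by r over group means at a mean log2 CPM of at least 1, and list genes by their function. The members and gene lists were chosen with earlier results of these data known. Coding sequences came from GENCODE M21.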

Additional observations from a re-analysis of the deposited data

Results flagged for a closer look

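In 6 of 99 sets of a gene or sum and a group of 4 libraries, 1 library stood apart from the other 3 by Dixon's criterion (its gap to the nearest library over the range of the group), and chance gives about 1 set in 20. Cyp4a12a in replicate 3 of the C57BL/6J males on 44% fat was 663 CPM, with the other 3 libraries at 249 to 276 CPM. The sum of Cyp4a12a and Cyp4a12b in the same library was 672 CPM, with the other 3 libraries at 259 to 287 CPM. Cyp4a14 was lowest of its group in that library, at 6.0 CPM. Cyp4a12a in replicate 3 of the CAST/EiJ females on 10% fat was 0.448 CPM, with the other 3 libraries at 0.851 to 0.923 CPM. Cyp4a12b in replicate 4 of the CAST/EiJ males on 44% fat was 32.8 CPM, with the other 3 libraries at 48.1 to 50.8 CPM. Cyp4a32 in replicate 3 of the NZO/HlLtJ females on 44% fat was 0.462 CPM, with the other 3 libraries at 0.143 to 0.190 CPM. The sum of Cyp4a10, Cyp4a31 and Cyp4a32 in replicate 4 of the NZO/HlLtJ females on 44% fat was 1065 CPM, with the other 3 libraries at 870.1 to 884 CPM.

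The difference of females minus males itself differed between strains by the edgeR test of that difference in 8 cases. For NZO/HlLtJ minus C57BL/6J the log2 values were 1.18 for Cyp4a10, 0.76 for Cyp4a31 and 2.32 for Cyp4a14. For CAST/EiJ minus C57BL/6J the value was 0.98 for Cyp4a10. For NZO/HlLtJ minus CAST/EiJ they were 1.67 for Cyp4a12a, 0.80 for Cyp4a31, -1.23 for Cyp4a32 and 1.61 for Cyp4a14.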

How the results depend on the processing

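The sex differences of Cyp4a12a, Cyp4a12b, Cyp4a10 and Cyp4a14 kept their direction and their call in each strain under all 8 other settings and in every fit without 1 library. Values that changed sign elsewhere were of members not called, with no exception when 1 library was left out or under the settings other than summed copies. With summed copies, 6 of the 25 were of called members, since a member then takes the value of its summed set. Apart from that setting, the cause was not tested.

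With near-identical copies summed, the number of members whose row was called became 0 for 44% minus 10% fat, CAST/EiJ, 0 for NZO/HlLtJ minus C57BL/6J, females on 10% fat, 3 for females minus males, CAST/EiJ minus C57BL/6J, 1 for NZO/HlLtJ minus CAST/EiJ, females on 10% fat, 0 for NZO/HlLtJ minus CAST/EiJ, males on 10% fat and 1 for females minus males, NZO/HlLtJ minus CAST/EiJ. It became 1 for 44% minus 10% fat, NZO/HlLtJ, 1 for NZO/HlLtJ minus C57BL/6J, females on 10% fat and 1 for females minus males, NZO/HlLtJ minus CAST/EiJ with limma-voom, 1 for NZO/HlLtJ minus C57BL/6J, females on 10% fat and 3 for females minus males, CAST/EiJ minus C57BL/6J with limma on the variance-stabilized table, 0 for 44% minus 10% fat, CAST/EiJ with only the strains compared, and 1 for the diet effect of females minus that of males in NZO/HlLtJ with the DESeq2 Wald test. Over the fits without 1 library the number called ran from 2 to 4 for CAST/EiJ minus C57BL/6J, females on 10% fat, 3 to 6 for CAST/EiJ minus C57BL/6J, males on 10% fat, 0 to 3 for 44% minus 10% fat, CAST/EiJ, 2 to 4 for females minus males, NZO/HlLtJ minus CAST/EiJ and 1 to 3 for 44% minus 10% fat, NZO/HlLtJ.

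With summed copies the values of changed sign were -0.010 for Cyp4a12b and 0.49 for Cyp4a32 (44% minus 10% fat, NZO/HlLtJ), 1.10 for Cyp4a12b and -0.70 for Cyp4a32 (the diet effect of females minus that of males in NZO/HlLtJ), 1.04 for Cyp4a31 (females minus males, CAST/EiJ), -0.057 for Cyp4a32 (the diet effect of females minus that of males in CAST/EiJ) and -0.31 for Cyp4a12b (the diet effect of females minus that of males in C57BL/6J). Others were 0.87 for Cyp4a12b and 0.45 for Cyp4a32 (NZO/HlLtJ minus C57BL/6J, females on 10% fat), 1.45 for Cyp4a12b (NZO/HlLtJ minus C57BL/6J, males on 10% fat), 0.87 for Cyp4a32 (females minus males, NZO/HlLtJ minus C57BL/6J), -0.75 for Cyp4a12b and 0.25 for Cyp4a32 (44% minus 10% fat, NZO/HlLtJ minus C57BL/6J) and 0.30 for Cyp4a31 (CAST/EiJ minus C57BL/6J, females on 10% fat). Last in this set were -0.55 for Cyp4a32 (CAST/EiJ minus C57BL/6J, males on 10% fat), 0.50 for Cyp4a12a and 0.62 for Cyp4a31 (females minus males, CAST/EiJ minus C57BL/6J), -0.21 for Cyp4a12b (44% minus 10% fat, CAST/EiJ minus C57BL/6J), -0.50 for Cyp4a12a and 0.15 for Cyp4a10 and Cyp4a32 (NZO/HlLtJ minus CAST/EiJ, females on 10% fat), -0.38 for Cyp4a12a and Cyp4a12b and 0.25 for Cyp4a32 (females minus males, NZO/HlLtJ minus CAST/EiJ) and -0.0067 for Cyp4a31 (44% minus 10% fat, NZO/HlLtJ minus CAST/EiJ). With DESeq2 size factors it was 0.0026 for Cyp4a31 (females minus males, CAST/EiJ), and with no filter 0.022 for Cyp4a12a (NZO/HlLtJ minus CAST/EiJ, males on 10% fat). With no run term they were -0.014 for Cyp4a32 (44% minus 10% fat, CAST/EiJ minus C57BL/6J) and 0.040 for Cyp4a12a (NZO/HlLtJ minus CAST/EiJ, males on 10% fat). With limma-voom they were -0.088 for Cyp4a32 (the diet effect of females minus that of males in NZO/HlLtJ), 0.0020 for Cyp4a31 (females minus males, CAST/EiJ) and -0.17 for Cyp4a12b (the diet effect of females minus that of males in C57BL/6J). On the variance-stabilized table they were 0.0080 for Cyp4a31 (females minus males, CAST/EiJ), -0.10 for Cyp4a12b (the diet effect of females minus that of males in CAST/EiJ), -0.16 for Cyp4a12b (the diet effect of females minus that of males in C57BL/6J), -0.031 for Cyp4a12a (females minus males, NZO/HlLtJ minus C57BL/6J), -0.55 for Cyp4a12b (females minus males, CAST/EiJ minus C57BL/6J) and 0.028 for Cyp4a12a (NZO/HlLtJ minus CAST/EiJ, males on 10% fat). With only the strains compared they were 0.0098 for Cyp4a31 (the diet effect of females minus that of males in CAST/EiJ) and 0.088 for Cyp4a12a (NZO/HlLtJ minus CAST/EiJ, males on 10% fat). The DESeq2 Wald test gave 0.0013 for Cyp4a12a (44% minus 10% fat, NZO/HlLtJ), 0.0026 for Cyp4a31 (females minus males, CAST/EiJ) and 0.056 for Cyp4a12a (NZO/HlLtJ minus CAST/EiJ, males on 10% fat). Leaving out 1 library at a time, the log2 values that ran across 0 were Cyp4a31 -0.013 to 0.10 (females minus males, C57BL/6J), Cyp4a32 -0.042 to 0.21 (44% minus 10% fat, C57BL/6J), Cyp4a12a -0.27 to 0.45 (the diet effect of females minus that of males in C57BL/6J), Cyp4a12b -0.21 to 0.27 (the diet effect of females minus that of males in C57BL/6J), Cyp4a14 -0.024 to 0.17 (NZO/HlLtJ minus C57BL/6J, females on 10% fat), Cyp4a12b -0.020 to 0.33 (females minus males, CAST/EiJ minus C57BL/6J), Cyp4a31 -0.11 to 0.091 (females minus males, CAST/EiJ minus C57BL/6J), Cyp4a31 -0.0090 to 0.17 (44% minus 10% fat, CAST/EiJ minus C57BL/6J) and Cyp4a32 -0.11 to 0.23 (44% minus 10% fat, CAST/EiJ minus C57BL/6J). The remaining ones were Cyp4a31 -0.060 to 0.12 (females minus males, CAST/EiJ), Cyp4a32 -0.026 to 0.31 (44% minus 10% fat, CAST/EiJ), Cyp4a12b -0.17 to 0.46 (the diet effect of females minus that of males in CAST/EiJ), Cyp4a31 -0.26 to 0.11 (the diet effect of females minus that of males in CAST/EiJ), Cyp4a32 -0.18 to 0.47 (the diet effect of females minus that of males in CAST/EiJ), Cyp4a10 -0.067 to 0.41 (females minus males, NZO/HlLtJ minus CAST/EiJ), Cyp4a10 -0.30 to 0.071 (44% minus 10% fat, NZO/HlLtJ minus CAST/EiJ), Cyp4a12a -0.19 to 0.10 (NZO/HlLtJ minus CAST/EiJ, males on 10% fat), Cyp4a31 -0.30 to 0.069 (NZO/HlLtJ minus CAST/EiJ, males on 10% fat) and Cyp4a12a -0.14 to 0.11 (44% minus 10% fat, NZO/HlLtJ). With unscaled library sizes the mean CPM of C57BL/6J females on 10% fat moved to 355 for Cyp4a10 and 300.5 for Cyp4a31, and that of C57BL/6J females on 44% fat to 366 for Cyp4a31, each by more than 1 SD.

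No paired analysis was possible because the labels give no replicate numbers shared between groups. Depth limits Cyp4a12a and Cyp4a12b in females, and Cyp4a32 in NZO/HlLtJ and C57BL/6J, whose libraries held at most 37.1 counts of it. With 3 or 4 libraries a group, the interval of the Cyp4a14 diet effect in NZO/HlLtJ females spans a fall and a rise. Its width also carries the spread of the males, since the fit takes the spread of a gene from all 47 libraries. Log2 deviations of Cyp4a14 from the group mean ran from -1.49 to 1.47 in NZO/HlLtJ males on 44% fat. In NZO/HlLtJ females on 44% fat they ran from -0.23 to 0.24. A fit of the females alone was not made. Copy-level values depend on how the authors' counting split shared reads.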
